A study of Ovis aries with 15 samples.

Results

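The insulin receptor and the genes that act below it in the cell were described here in mammary tissue of sheep at the end of pregnancy and during lactation. The group was listed by symbol as INSR, IRS1, IRS2, PIK3R1, AKT1, AKT2, PDPK1, FOXO1 and FOXO3, and a gene entered where the deposited table had a row of that symbol. This gave 8 genes of the 9 listed, out of 24691 features in the table, and IRS2 was not analysed here. Tissue came by needle biopsy from 2-year-old Romney ewes in their first pregnancy, at day 135 of gestation (± 2.4 SD) and at day 15 post partum (± 1.27 SD). RNA was pooled before sequencing, which gave 9 late pregnancy pools and 6 lactation pools. The ewes shared 1 breed, farm and feeding level, and differed in what their own dams had eaten. Dams of the HM, MM and LM groups received pasture ad libitum, at maintenance or below maintenance from day 21 to day 50 of gestation, and all of them were at maintenance after that. Each of the 3 groups held 3 late pregnancy pools and 2 lactation pools. A late pregnancy pool held RNA of 3 ewes and a lactation pool RNA of 2 or 3, since the sources differ. The same flock was sampled in both states, and which ewes entered which pool was not given in the sources used here.

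Insulin binds a receptor tyrosine kinase, INSR, which phosphorylates docking proteins of the IRS family. These recruit PI3-kinase, whose lipid product brings the kinases PDK1 (the product of PDPK1) and AKT together at the membrane, and AKT then acts on the machinery of glucose uptake, glycogen, protein and fat synthesis. AKT also phosphorylates the FOXO transcription factors, which holds them out of the nucleus, so FOXO target genes are usually most active when insulin signalling is low. In ruminants the lactating gland takes up much of its glucose without insulin, and fat and muscle become less responsive to insulin in early lactation.

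Reads were counted on the exons of each gene. Levels are given as scaled RPKM, the exon reads per kilobase of exon and per 1000000 reads, where the read total of each library was corrected by TMM, edgeR's factor that aligns the bulk of the genes between libraries. Without that correction the median change of all tested genes would be -1.94 on the log2 scale, as milk protein genes take up a large part of the lactation reads. Reads on genes per library ranged from 7597938 to 19823166 in late pregnancy (TMM factors 1.56 to 1.83) and from 10352962 to 25679416 in lactation (0.432 to 0.505). All replicate libraries differed from each other by more than sampling noise, with a mean chi-square of 6.25 to 53.7 per gene over 51 pairs, for genes with at least 50 reads in the pair, so each library counted once. A change is the log2 ratio of lactation over late pregnancy from edgeR's quasi-likelihood test, and a gene was called changed at a Benjamini-Hochberg adjusted p under 0.05 over all 13345 genes tested. The p-values measure the spread between pools. They treat the pools as independent, although the 2 states share ewes. In bulk tissue, fewer cells of a type and less RNA per cell cannot be told apart.

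Of the 8 genes, 5 rose in lactation (INSR, IRS1, PDPK1, FOXO3 and, narrowly, AKT2), 1 fell (FOXO1) and 2 did not pass the test (PIK3R1 and AKT1). Over all tested genes 68.4% were called, 33.1% as higher and 35.2% as lower, so that 6 calls among 8 genes is close to the share in the whole table. IRS1 and FOXO3 rose by more than 2-fold, which 9.13% of all tested genes did. The 2 states did not overlap in any library for 4 of the genes (INSR, IRS1, FOXO1 and FOXO3), against 40.2% of all tested genes. The median change of the 8 genes was 0.30 on the log2 scale beside -0.03 for all tested genes. The split of 5 higher and 1 lower depended on the scaling. It was 4 higher and 4 lower when libraries were scaled to PRPF3 and CUL1, the reference genes of the study's RT-qPCR, and 1 higher and 6 lower on library size alone.

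**Figure D1:**
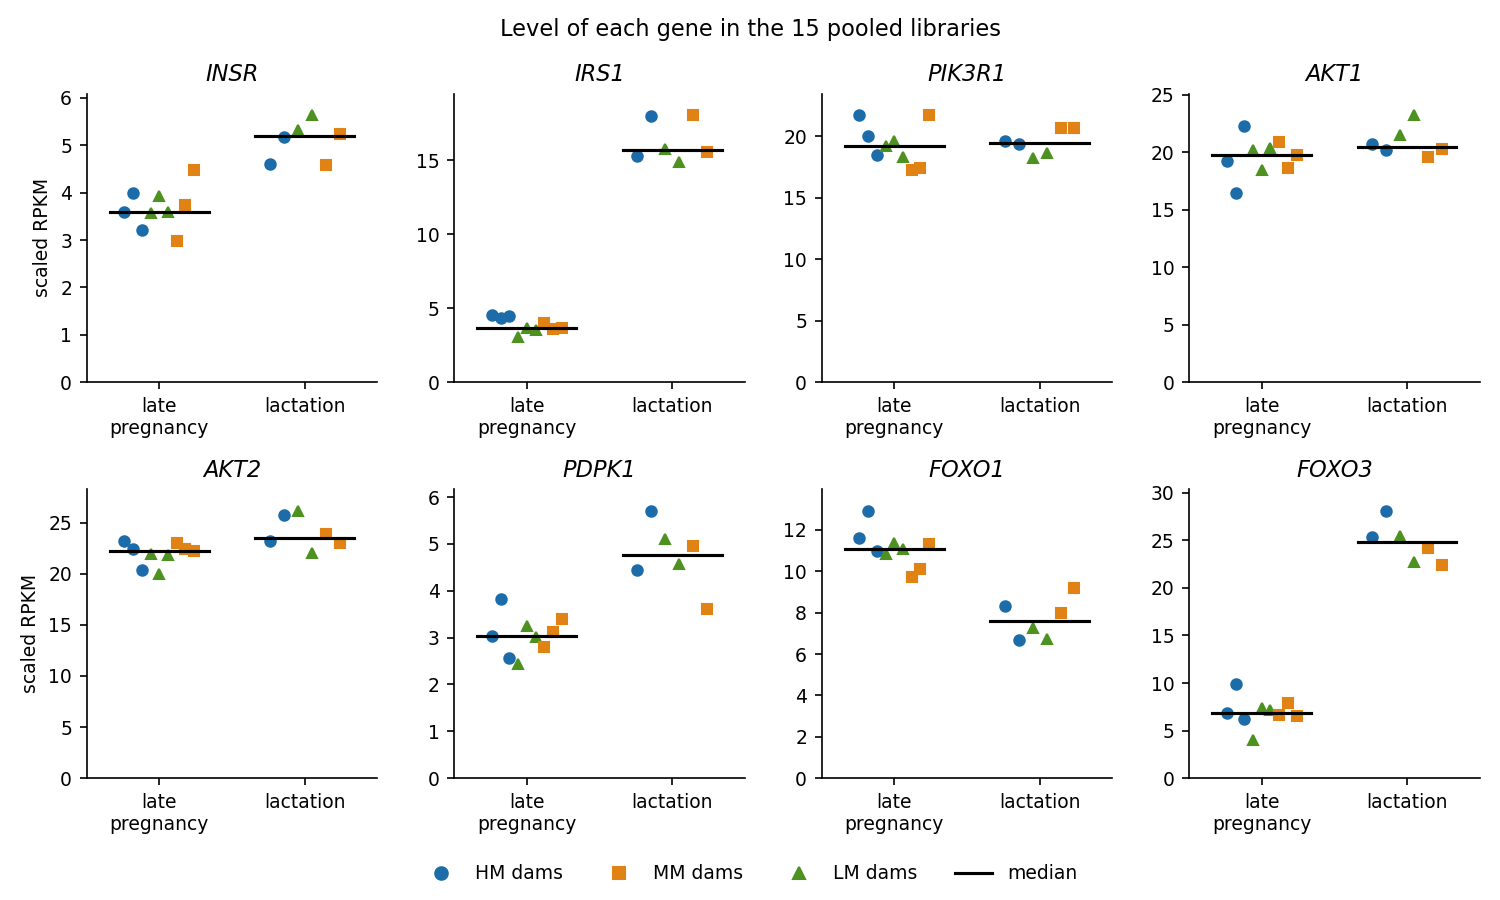
Scaled RPKM (vertical axes, each from 0) of the 8 genes in the 9 late pregnancy and 6 lactation pools, with 1 point per pool, marked by the nutrition group of the ewes' dams, and the median of each state as a line. IRS1 and FOXO3 stand far apart between the states, INSR and FOXO1 stand just apart, and PIK3R1, AKT1 and AKT2 overlap.

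The tissue was checked against cell type markers, since the make-up of a biopsy can move with the state. All 8 luminal epithelial markers were tested, and their summed scaled RPKM was 1156 to 1430 in late pregnancy, against 1706 to 1882 in lactation, with 4 called higher and 2 lower. KRT19 (mean 456 to 694) and ELF5 (431 to 753) made up most of this sum, while KRT7 fell from 183 to 84.3. For T cells, all 8 markers were lower in lactation and the sum went from 32.1 to 51.2 down to 10.5 to 15.8. For endothelial cells, all 5 tested markers were lower, with sums of 55.5 to 76.9 and 28.1 to 43.3. Macrophage markers summed to 94.3 to 121 and then 55.2 to 76.7, with 4 lower and 1 higher of 6 tested, and MARCO was at 0 in every library of at least 1 state. Of 6 fibroblast markers 5 were lower, with overlapping sums of 151 to 245 and 110 to 174. Myoepithelial sums (262 to 292 and 226 to 329, with 2 higher and 2 lower of 6) and adipocyte sums (533 to 1066 and 728 to 972, with edgeR adjusted p-values of 0.19 or more for all 5 tested, PPARG the lowest) overlapped between the states. The adipocyte sum was nearly all FABP4, with means of 806 in late pregnancy and 834 in lactation. The part of the marker shifts in the changes of the 8 genes was not tested.

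The receptor gene rose modestly. INSR (chromosome 5 from 13735285 to 13878584 in the files' build, 22 exons) had 2.97, 3.59 and 4.47 scaled RPKM as its lowest, median and highest late pregnancy library. In lactation these were 4.59, 5.21 and 5.64. The 2 ranges did not overlap, although the highest late pregnancy pool (MM pool 3) and the lowest lactation pool (MM pool 1) stood close together. The change was 0.47 ± 0.08 (SE) on the log2 scale, or 1.39-fold, with a 95% interval of 0.29 to 0.65 and an edgeR adjusted p of 4.6e-05. With PRPF3 and CUL1 as the reference the change was smaller, 0.21 (adjusted p = 0.046). The counts behind it were 180 to 483 exon reads per library in late pregnancy, against 87 to 219 in lactation. A larger rise was shown by 21.7% of the tested genes.

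IRS1, the docking protein that the receptor phosphorylates, showed the largest change among the 8 genes. The gene lies on chromosome 2 from 228036501 to 228097629 with 4 annotated exons. Its scaled RPKM was 3.08, 3.69 and 4.50 (lowest, median, highest) in late pregnancy and 14.9, 15.6 and 18.0 in lactation. Every lactation pool thus stood more than 3-fold above every late pregnancy pool. The log2 change was 2.08 ± 0.08 (SE), 4.23-fold, with a 95% interval of 1.91 to 2.25 and an edgeR adjusted p of 1.3e-14. Only 3.03% of the tested genes rose by more. IRS1 was also 1 of 2 of these genes whose deposited RPKM, which has no such correction, was not lower in lactation by its median (5.67 and 6.55).

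PIK3R1 encodes p85-alpha, the regulatory subunit through which PI3-kinase binds IRS proteins. It lies on chromosome 16 from 11387730 to 11470207 and has 17 exons in 3 annotated transcripts. From the lowest over the median to the highest library, scaled RPKM was 17.3, 19.2 and 21.8 in late pregnancy, against 18.3, 19.5 and 20.7 in lactation, so the lactation range lay inside the other. The log2 change was 0.02 ± 0.06 (SE) with a 95% interval of -0.11 to 0.15 (edgeR adjusted p = 0.78). It was among the best read genes of the group, with 407 to 2654 exon reads per library. The sign depended on the scaling, and the gene was called lower with PRPF3 and CUL1 as the reference (-0.24, adjusted p = 0.0047).

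PDPK1 encodes PDK1, the kinase that switches on AKT by phosphorylating its activation loop. It lies on chromosome 24 from 2037739 to 2079840 with 18 exons. Levels of 2.43, 3.04 and 3.82 scaled RPKM in late pregnancy stood beside 3.60, 4.76 and 5.70 in lactation (lowest, median, highest). A single pool on each side made the states overlap, namely HM pool 2 of late pregnancy and MM pool 2 of lactation. The log2 change was 0.64 ± 0.11 (SE), 1.55-fold, with a 95% interval of 0.39 to 0.88 (edgeR adjusted p = 4.6e-05). With PRPF3 and CUL1 as the reference it was 0.37 (adjusted p = 0.0057). The gene had the fewest exon reads of the group, 74 to 205 per library in late pregnancy, against 43 to 121 in lactation.

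The kinases AKT1 and AKT2 moved little. AKT1, the form most linked to growth and survival, lies on chromosome 18 from 67873645 to 67880554 with 6 annotated exons. AKT1 had a scaled RPKM of 16.5, 19.8 and 22.3 in late pregnancy, against 19.6, 20.5 and 23.3 in lactation, and the states overlapped widely. The log2 change was 0.09 ± 0.07 (SE) with a 95% interval of -0.06 to 0.23 (edgeR adjusted p = 0.24), and with PRPF3 and CUL1 as the reference it was -0.18 (adjusted p = 0.041). AKT2, the form most linked to insulin-driven glucose uptake, lies on chromosome 14 from 48772178 to 48801282 with 13 exons. AKT2 had a scaled RPKM of 20.0, 22.2 and 23.2 in late pregnancy, against 22.0, 23.5 and 26.1 in lactation, again with overlap. The log2 change of AKT2 was 0.13 ± 0.05 (SE), 1.10-fold, with a 95% interval of 0.02 to 0.25 (edgeR adjusted p = 0.036). This call was lost when any 1 of 6 libraries was left out (HM pool 2, LM pool 1 or MM pool 1 of lactation, HM pool 3, LM pool 2 or LM pool 3 of late pregnancy), with adjusted p-values of 0.021 to 0.11 over all 15 such fits. Under upper quartile scaling the change was -0.02, and with PRPF3 and CUL1 as the reference it was -0.13 (adjusted p = 0.036).

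The balance of the AKT genes was compared as a ratio within each library, which no scaling between libraries can alter. The log2 ratio of AKT2 to AKT1 was -0.13, 0.14 and 0.44 in late pregnancy, against -0.08, 0.23 and 0.35 in lactation (lowest, median, highest). The means differed by 0.03 on the log2 scale, and an exact two-sided permutation test over the libraries gave p = 0.71 (adjusted p = 0.71 over the 2 ratios tested).

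The FOXO genes moved in opposite directions. FOXO1 lies on chromosome 10 from 22228019 to 22241901 with 4 exons. Its scaled RPKM was 9.71, 11.1 and 12.9 in late pregnancy, against 6.68, 7.60 and 9.21 in lactation, with no overlap. FOXO1 fell by 0.52 ± 0.07 (SE) on the log2 scale, which is 1.44-fold, with a 95% interval of -0.68 to -0.36 (edgeR adjusted p = 4.0e-06). With PRPF3 and CUL1 as the reference the change was -0.78 (adjusted p = 3.7e-08). FOXO3, a family member with many of the same target genes, lies on chromosome 8 from 28612624 to 28713922 with 2 annotated exons. Its scaled RPKM was 4.04, 6.82 and 9.93 in late pregnancy, against 22.4, 24.8 and 28.1 in lactation. Every lactation pool was thus more than 2-fold above the highest late pregnancy pool, although late pregnancy itself was uneven, from LM pool 1 at the low end to HM pool 2 at the high end. FOXO3 rose by 1.84 ± 0.12 (SE) on the log2 scale, 3.58-fold, with a 95% interval of 1.58 to 2.11 (edgeR adjusted p = 5.9e-11). Only 3.68% of the tested genes rose by more. FOXO4 fell with FOXO1, by 0.52 ± 0.12 (SE), from a mean scaled RPKM of 6.56 to 4.51 (edgeR adjusted p = 6.1e-04), while FOXO6 had too few reads to be tested.

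Within each library the leading FOXO gene per length changed over. The log2 ratio of FOXO1 to FOXO3 per length was 0.35, 0.63 and 1.42 in late pregnancy, against -2.07, -1.68 and -1.29 in lactation (lowest, median, highest). Per length, FOXO1 was therefore above FOXO3 in 9 of 9 late pregnancy pools, by 1.55-fold at the median, and FOXO3 above FOXO1 in 6 of 6 lactation pools, by 3.21-fold at the median. Which gene leads, and by how much, rests on annotated exon lengths of 4236 bases for FOXO1 and 1602 for FOXO3. Whether these lengths are complete was not tested. Exon reads summed over the lactation pools were 1431 for FOXO1 and 1698 for FOXO3. The change of the ratio between the states does not depend on the lengths. The means differed by -2.40 on the log2 scale (exact two-sided permutation test, p = 4.0e-04, the smallest these 15 libraries allow, adjusted p = 8.0e-04 over the 2 ratios). The difference was -2.28 among libraries named for lane 7 and -2.48 among those named for lane 8, and -2.48 to -2.31 when any 1 library was left out.

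**Figure D2:**
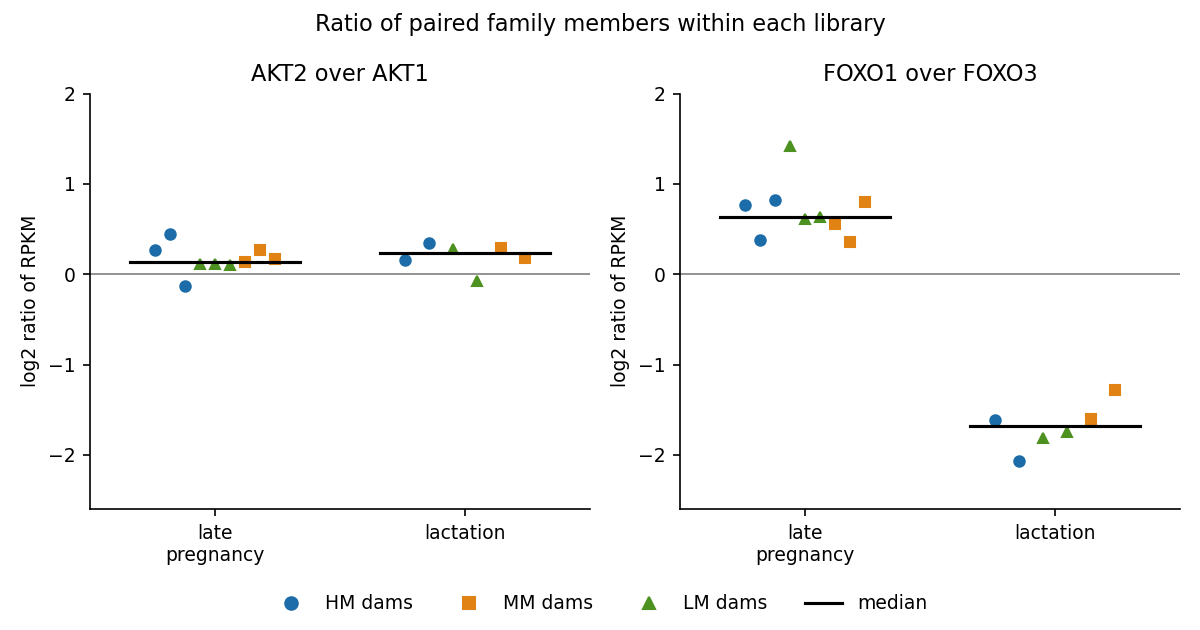
Log2 ratio of RPKM within each pool (vertical axes) for AKT2 over AKT1 and FOXO1 over FOXO3, with 1 point per pool, marked by dam nutrition, and a line at each state's median. The AKT ratio lies around 0.14 and 0.23 in the 2 states, while every FOXO ratio is above 0 in late pregnancy and at or below -1.29 in lactation.

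The same libraries give a readout from introns, as the reads inside the span of a gene but outside its annotated exons. What RNA these reads come from was not tested, and the library kit does not mark strand. They were tested like the exon reads, over 10344 genes of which 58.0% were called (29.0% higher and 29.0% lower). Among the 8 genes 4 were called higher on introns (IRS1, FOXO3, PDPK1 and PIK3R1) and 0 lower.

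IRS1 and FOXO3 rose on introns as on exons. The intron change of IRS1 was 2.24 ± 0.10 (SE, adjusted p = 6.6e-15) on the log2 scale, and that of FOXO3 2.42 ± 0.11 (SE, adjusted p = 3.8e-15), both from edgeR. The share of FOXO3's gene reads that lay in introns was 33.1% ± 4.81 (SD, n = 9) in late pregnancy and 43.2% ± 5.98 (SD, n = 6) in lactation. For IRS1 these shares were 27.9% ± 4.77 and 31.9% ± 2.61. PDPK1 had an intron change of 0.40 ± 0.10 (SE, edgeR adjusted p = 0.0023), and introns held 46.3% ± 2.62 of its reads and then 43.7% ± 4.27.

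INSR and PIK3R1 read differently on the 2 kinds of reads. INSR was called higher on exons, while its intron change was -0.07 ± 0.12 (SE, edgeR adjusted p = 0.66), and the intron share of its reads was 34.4% ± 3.87 (SD, n = 9) and then 27.4% ± 3.35 (SD, n = 6). PIK3R1 was not called on exons and had an intron change of 0.35 ± 0.09 (SE, edgeR adjusted p = 0.0016), with intron shares of 11.1% ± 0.43 and 14.3% ± 2.32. The difference between exon and intron change was not tested for any gene. FOXO1 had only 3 to 30 intron reads per library, so its intron change of 0.18 ± 0.25 (SE, edgeR adjusted p = 0.56) is too imprecise to set beside its fall on exons. The intron changes of AKT1 (0.41 ± 0.20 SE, edgeR adjusted p = 0.082) and AKT2 (0.23 ± 0.11 SE, edgeR adjusted p = 0.064) did not pass the test.

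**Figure D3:**
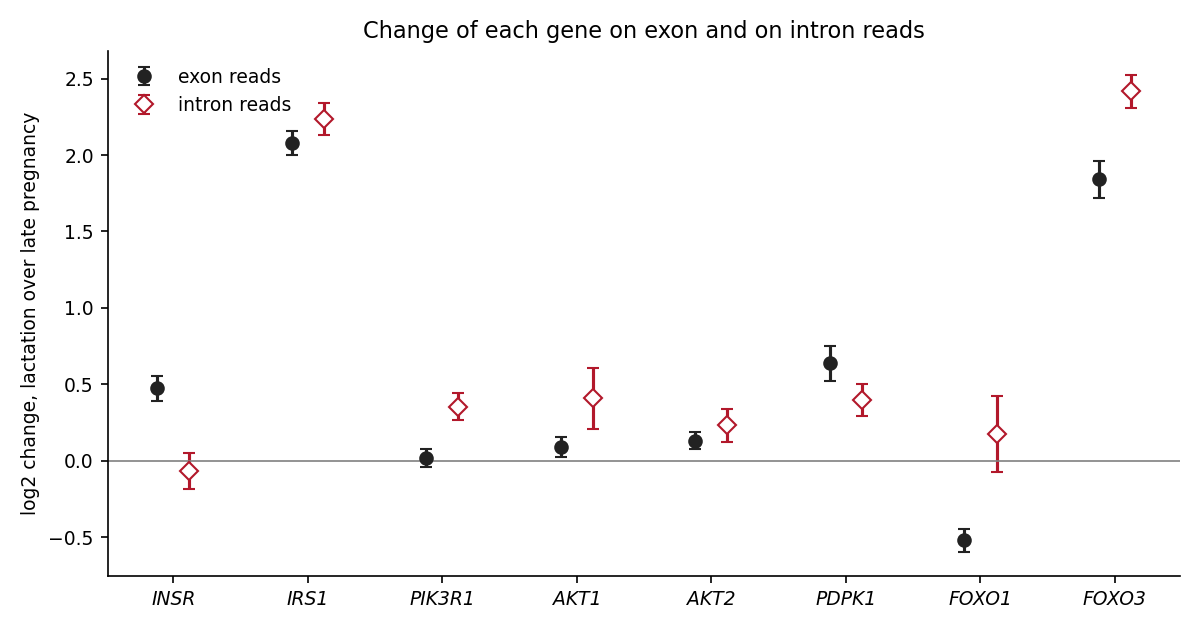
Log2 change of lactation over late pregnancy (vertical axis) for each of the 8 genes, from exon reads (filled circles) and intron reads (open diamonds), with bars of 1 standard error. Both readouts are near or above 2 for IRS1 and FOXO3, while INSR lies at 0.47 on exons and -0.07 on introns.

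The order of the levels per length changed between the states. The place of each gene rests on its annotated exon length, from 1080 bases for AKT1 to 4564 for PIK3R1. By median scaled RPKM in late pregnancy it was AKT2, AKT1, PIK3R1, FOXO1, FOXO3, IRS1, INSR and PDPK1. Of these neighbours only PIK3R1 and FOXO1 had ranges that did not overlap. In lactation the order was FOXO3, AKT2, AKT1, PIK3R1, IRS1, FOXO1, INSR and PDPK1. There the ranges of PIK3R1 and IRS1, of IRS1 and FOXO1, and of FOXO1 and INSR stood apart, while the first 4 genes overlapped from each to the next. Among genes with a mean deposited RPKM of at least 1, FOXO3 stood above 52.6% in late pregnancy and 78.0% in lactation, and IRS1 above 34.7% and then 66.6%. FOXO1 stood above 66.5% and then 40.0%. AKT2 stood above 83.4% and 77.3%, while PDPK1, the lowest of the group in both states, stood above 28.1% and 22.0%.

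Since the scaling sets the zero of every change, the changes were also set against the median change of all tested genes under each processing alternative. That median was -0.03 under TMM, -0.18 under upper quartile scaling, -0.24 with library sizes counted without milk protein genes, -0.29 with PRPF3 and CUL1 as the reference, and -1.94 on library size alone. Relative to it, over 14 settings, IRS1 was higher by 1.77 to 2.15, FOXO3 by 1.61 to 1.91, PDPK1 by 0.55 to 0.71 and INSR by 0.40 to 0.55 on the log2 scale. FOXO1 lay between -0.59 and -0.45 relative to the median. PIK3R1 (-0.10 to 0.09), AKT1 (-0.03 to 0.16) and AKT2 (-0.0039 to 0.20) stayed near it. The scalings named above move all genes by nearly the same amount, so their agreement here is built into the subtraction. The ranges thus show mainly what the settings of filter, reads, test and covariate change. Both reference genes were themselves called higher in lactation under TMM. PRPF3 rose by 0.30 ± 0.05 (SE, edgeR adjusted p = 4.7e-05) and CUL1 by 0.235 ± 0.051 (SE, edgeR adjusted p = 4.2e-04).

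**Figure D4:**
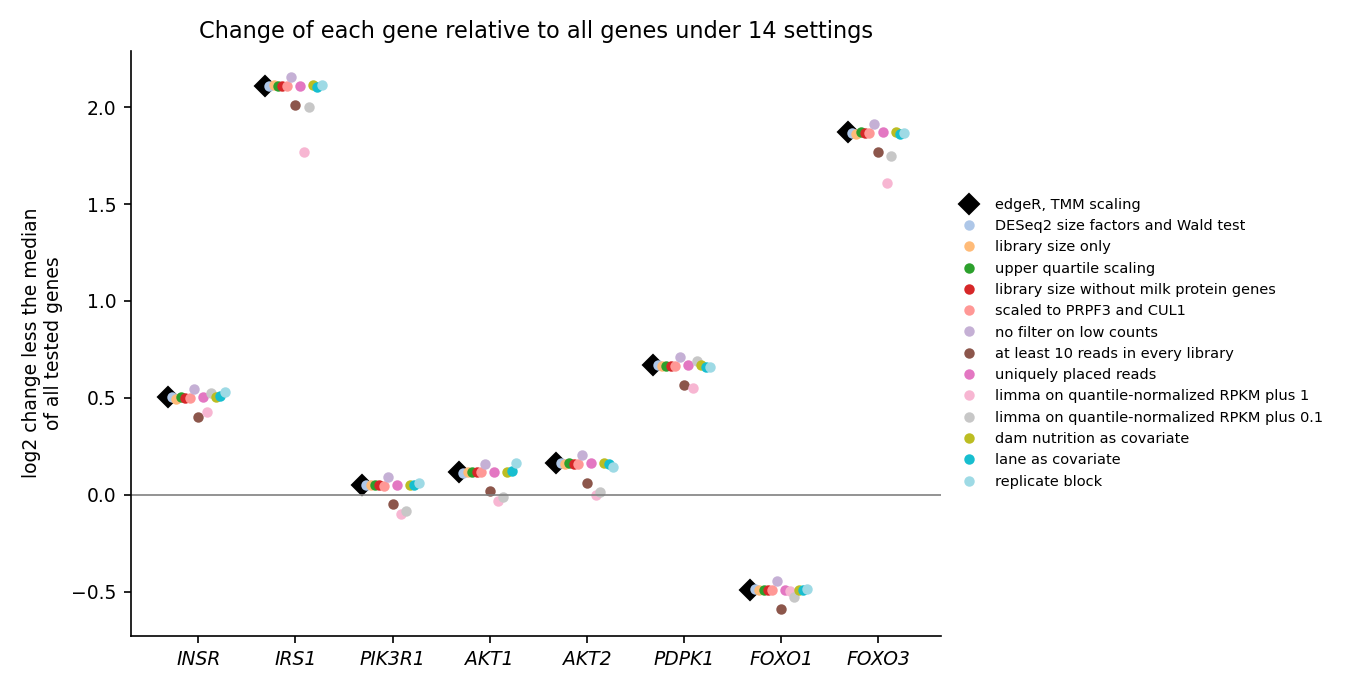
Log2 change of each of the 8 genes less the median change of all tested genes (vertical axis) under 14 settings of scaling, filter, reads, test and covariate, with the edgeR fit under TMM as large diamonds. IRS1, FOXO3, PDPK1 and INSR lie above the median and FOXO1 below it in every setting shown, and PIK3R1, AKT1 and AKT2 lie near 0. Settings that only rescale the libraries differ little here by construction.

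The nutrition of the ewes' dams gave no called difference in these genes. Within late pregnancy, edgeR called 0 of 13747 genes between the HM, MM and LM groups, with 4.15% of genes at an unadjusted p under 0.05, and DESeq2's likelihood ratio test called 20. Among the 8 genes IRS1 alone had an unadjusted p under 0.05 (0.0084, edgeR adjusted p = 0.9997). Its scaled RPKM was 4.36 to 4.50 in the HM pools, 3.59 to 4.0 in the MM pools and 3.08 to 3.66 in the LM pools. The HM pools of late pregnancy thus stood above the others, while in lactation the HM pools (15.3 and 18.0) overlapped the MM pools (15.6 and 18.0) and the LM pools (14.9 and 15.7).

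The change between the states was also compared between the nutrition groups. For this interaction edgeR called 0 of 13345 genes, with 6.56% at an unadjusted p under 0.05, and DESeq2 called 19. FOXO1 had the lowest unadjusted p of the 8 genes (0.037, edgeR adjusted p = 0.74). Its log2 change was -0.67 in the HM group, -0.27 in the MM group and -0.67 in the LM group. IRS1 was higher in lactation in each group, with log2 changes of 1.90 (HM), 2.16 (MM) and 2.17 (LM). FOXO3 was higher likewise, with 1.83, 1.74 and 2.01.

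The rest of the pathway was read from lists of genes by role, which together named 93 genes other than those above. Of these 83 had a row and 74 were tested, with 31 lower, 27 higher and 16 not called, and a median log2 change of 0.03 beside -0.03 for all tested genes. The split was 36 lower and 19 higher with PRPF3 and CUL1 as the reference, 35 and 19 with library sizes counted without milk protein genes, and 69 and 3 on library size alone. The counts by role below include the 8 genes. For these counts, and for the 31 lower and 27 higher above, the shares over all tested genes were 35.2% lower and 33.1% higher.

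Beside the receptor stand adaptors that pass the signal on and brakes that stop it. IGF1R, the related receptor of insulin-like growth factors, was not analysed here, and INSRR had too few reads. Of 6 docking proteins and adaptors tested, 4 were higher (IRS1, SOS1, SHC1 and GRB2), 1 was lower (SH2B1) and GAB1 was not called. After IRS1 the largest was SOS1, the exchange factor that activates RAS, at 0.53 ± 0.10 (SE, edgeR adjusted p = 6.8e-05). SH2B1, an adaptor of the insulin and JAK2 pathways, fell by 0.38 ± 0.07 (SE, edgeR adjusted p = 9.6e-05).

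Of 8 tested brakes at the receptor, 2 were lower (GRB14 and PTPRF) and 3 higher (SOCS3, PTPN1 and SOCS2). GRB14, an adaptor that binds the active receptor and blocks its kinase, had 30 to 158 exon reads per library in late pregnancy, against 1 to 5 in lactation. Its mean scaled RPKM went from 1.76 ± 0.41 (SD, n = 9) to 0.098, a fitted log2 change of -4.01 ± 0.29 (SE, edgeR adjusted p = 2.0e-10), and the depth in lactation sets how well that size is known. PTPN1, the phosphatase that removes phosphate from the receptor, rose by 0.69 ± 0.10 (SE, edgeR adjusted p = 3.5e-06). SOCS3, a cytokine-induced inhibitor that also targets IRS proteins, rose by 1.40 ± 0.29 (SE, edgeR adjusted p = 3.1e-04) on 4 to 26 reads per library.

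Of 8 PI3-kinase subunits tested, 5 were lower (PIK3CD, PIK3CG, PIK3R2, PIK3R3 and PIK3R5), 0 were higher, and PIK3CA, PIK3CB and PIK3R1 were not called, with a list median of -0.71. PIK3CD, the catalytic subunit best known from lymphocytes, went from a mean scaled RPKM of 1.57 to 0.431 and fell by 1.86 ± 0.16 (SE, edgeR adjusted p = 2.4e-09). PIK3R3 fell by 0.83 ± 0.28 (SE, edgeR adjusted p = 0.012) and PIK3R5, the regulator of the gamma form, by 0.77 ± 0.22 (SE, edgeR adjusted p = 0.0040). PIK3CD, PIK3CG and PIK3R5 are best known from immune cells, and all 8 T cell markers fell as well, by a median of 1.61 on the log2 scale, whose part in these falls was not tested. The catalytic subunits of most tissues did not move past the test, with log2 changes of 0.07 ± 0.09 (SE) for PIK3CA and 0.01 ± 0.10 (SE) for PIK3CB.

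Lipid phosphatases remove the product of PI3-kinase, and of these INPP4B and INPPL1 were called higher. INPP4B rose by 0.95 ± 0.17 (SE, edgeR adjusted p = 4.3e-05), and INPPL1, which encodes SHIP2, by 0.45 ± 0.06 (SE, edgeR adjusted p = 1.1e-06). INPP4A fell 1.42-fold (edgeR adjusted p = 2.0e-05).

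Among 12 tested genes of PDK1, AKT and the mTORC2 complex, 5 were higher (PDPK1, AKT2, MTOR, TRIB1 and TRIB3), and MLST8 and TRIB2 were among those called lower. The Tribbles genes encode pseudokinases, of which TRIB3 is known to bind AKT and hinder its activation. TRIB3 had 1 to 10 exon reads per library in late pregnancy, against 32 to 111 in lactation, for a mean scaled RPKM of 0.157 and 12.1. Its fitted log2 change was 6.16 ± 0.42 (SE, edgeR adjusted p = 9.5e-11), and the few late pregnancy reads limit how well that size is known. TRIB1 rose by 1.52 ± 0.15 (SE, edgeR adjusted p = 2.5e-08), and TRIB2 fell by 0.67 ± 0.09 (SE, edgeR adjusted p = 2.5e-06).

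AKT substrates split evenly, with 5 lower and 5 higher of 14 tested and a list median of 0.14. TBC1D1, a brake on glucose transporter traffic, fell by 1.53 ± 0.11 (SE, edgeR adjusted p = 2.8e-10). PDE3B, the phosphodiesterase through which insulin restrains lipolysis, fell by 1.21 ± 0.21 (SE, edgeR adjusted p = 3.6e-05). PFKFB2, which makes the activator of phosphofructokinase, rose by 0.81 ± 0.12 (SE, edgeR adjusted p = 5.2e-06). SLC2A4, the insulin-responsive glucose transporter, was barely read, with a mean scaled RPKM of 0.198 and 0.257 and no call (edgeR adjusted p = 0.12).

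FOXO factors and their cofactors gave 4 lower and 5 higher calls among 9 tested, the lower being FOXO1, FOXO4, PPARGC1A and SKP2 and the higher FOXO3, SIRT1, CREBBP, EP300 and MDM2. MDM2 is uncertain, since only 24.6% of its exon reads were uniquely placed. SKP2, part of the ligase that marks FOXO1 for degradation, fell by 0.70 ± 0.19 (SE, edgeR adjusted p = 0.0024).

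The genes listed as known FOXO targets moved in both directions, and whether FOXO factors act on them here was not tested. CDKN1A, PCK1, TRIM63 and IGFBP1 were listed but had too few reads to be tested. Of 22 tested, 11 were lower and 9 higher, 7 and 6 of them by more than 2-fold, with a list median of -0.11. Over all tested genes 13.0% were lower and 9.13% higher by more than 2-fold. SESN2, a stress-induced inhibitor of mTORC1, rose by 2.70 ± 0.35 (SE, edgeR adjusted p = 9.1e-07) on 2 to 19 exon reads per library in late pregnancy and 10 to 42 in lactation. PCK2, the mitochondrial enzyme that makes phosphoenolpyruvate, rose from a mean scaled RPKM of 5.17 to 32.2, by 2.61 ± 0.24 (SE, edgeR adjusted p = 1.0e-08). KLF15, a regulator of amino acid and glucose metabolism, rose by 1.65 ± 0.20 (SE, edgeR adjusted p = 4.3e-07). Singled out after their values were seen, the genes that were lower by more than 2-fold were SESN1, SESN3, GADD45A, CCNG2, FBXO32, PIK3IP1 and PDK4, and the further ones higher by more than 2-fold were TRIB1, CITED2 and BCL6. The sestrin genes thus divided, with SESN1 at -1.53 ± 0.17 (SE) and SESN3 at -1.57 ± 0.14 (SE) against SESN2 above 0.

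**Figure D5:**
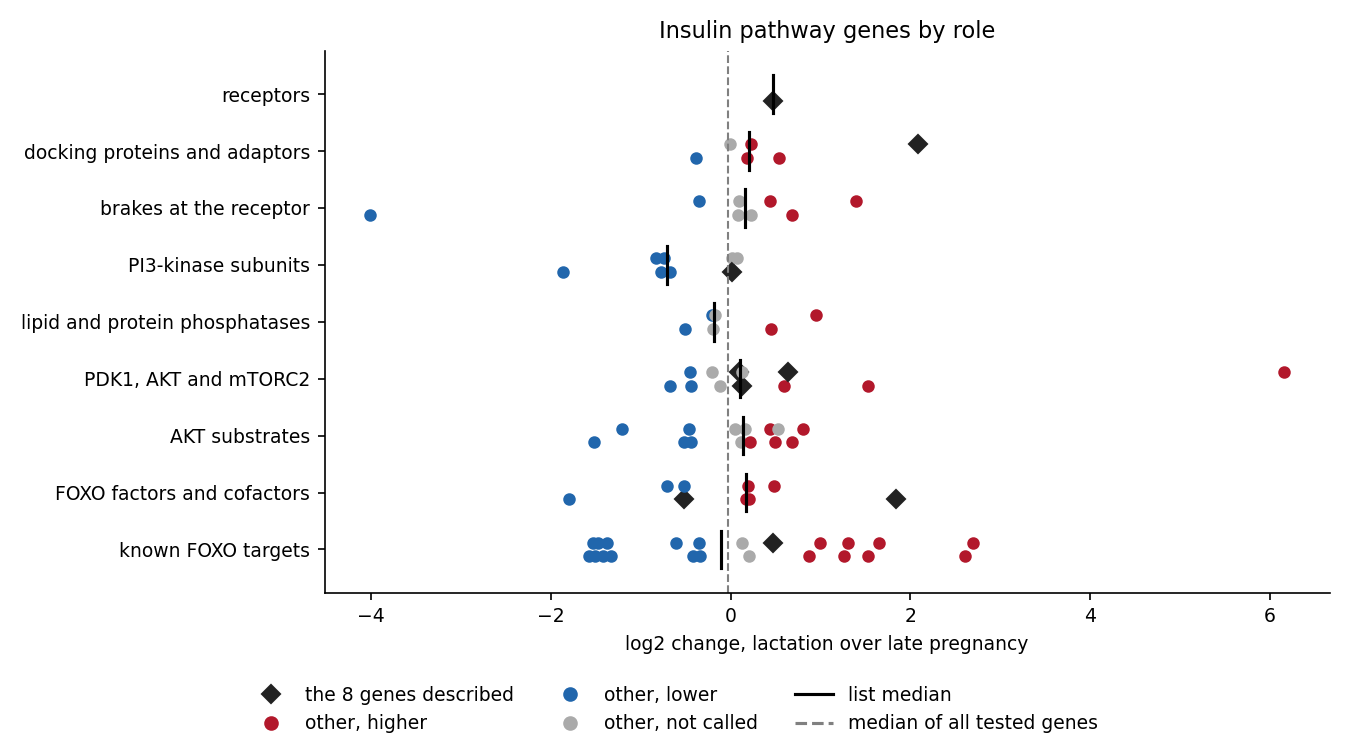
Log2 change of lactation over late pregnancy (horizontal axis) of every tested gene of the 9 role lists (rows), with the 8 genes described as black diamonds, other genes colored by call, the list median as a black line and the median of all tested genes (-0.03) as a dashed line. The PI3-kinase list holds no gene called higher, TRIB3 and GRB14 are the extremes, and FOXO targets spread to both sides.

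The genes whose pattern over the 15 libraries was most like each of the 8 were sought among 11271 genes, by Pearson's r of log2(CPM + 1), where CPM is scaled by TMM. These correlations are descriptions, since the points share their state and their library. IRS1 was most like BDH1, an enzyme of ketone body metabolism, and INSIG1, which restrains sterol and fat synthesis, with r = 0.995 and 0.994. After the mean of each state was removed these were 0.76 and 0.70. FOXO3 was most like TRIP11, a Golgi protein (0.992, and 0.88 with state means removed), and PLCL1 (0.989 and 0.85). FOXO1 was most like NIT2 (0.967) and FBXO7 (0.965), and PDPK1 most like NHLRC2 (0.968) and GAPVD1 (0.960).

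AKT1 was most like MRPS7, a subunit of the mitochondrial ribosome, with r = 0.901, and 0.894 with state means removed, followed by C5H19orf70 (0.875). AKT2 was most like FAM167A (0.910) and MFI2 (0.851). INSR was most like LOC101109365 (0.937) and VCPIP1 (0.929). PIK3R1 had the weakest likeness, with 0.732 to LOC101123133 and 0.708 to PLEKHA5.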

How the data were processed

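RNA pools from mammary biopsies were sequenced as 100 bp read pairs on an Illumina HiSeq with TruSeq version 2 libraries. The authors combined 2 lanes per library, mapped reads to the sheep genome (Oar 3.1 per the labels, 3.2 per the methods) in CLC Genomics Workbench (version not given in the sources used here), and deposited 1 table. Its counts are reads the authors placed on exons, on whole genes and on exon junctions, without normalization. Its RPKM values are the authors' exon reads per kilobase and per 1000000 reads on genes, also deposited after quantile normalization. The deposited fold changes and p-values of the authors' Baggerly test between the states were not used.

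Exon reads (or whole-gene reads, in 5583 features that lack a transcript) were analysed in edgeR 4.0.16 and R 4.3.3, with filterByExpr, TMM and the quasi-likelihood test over all genes, which left 13345. Intron reads are whole-gene less exon reads, with their own filter and TMM. All exon reads of the 8 genes were uniquely placed. On uniquely placed intron reads the same 4 genes were called higher, and INSR was at -0.080 on the log2 scale. Ratios were tested with scipy 1.17.1. Libraries were grouped by the labels, and the fits were tested on simulated data. Reads carry no molecular identifiers, so the spread between libraries, not an interval for counting error, is the measure of precision. Alternatives (28 for the comparison of the states, including DESeq2 1.42.0 and limma 3.58.1 on quantile-normalized RPKM) are summarised at the end.

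The 8 genes, the role lists and the marker lists were chosen with earlier results of these data known. All 8 were described. From each role list the called genes with the 3 largest changes among those whose RPKM averaged 1 or more in a state were named, with every gene of a count of 5 or fewer except where an item is not reported here, and per gene the 2 most alike in pattern. A planned ratio of IRS1 to IRS2 was not computed, since IRS2 was not analysed here.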

Additional observations from a re-analysis of the deposited data

Results flagged for a closer look

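The log2 ratio of FOXO1 to FOXO3 was 1.42 in LM pool 1 of late pregnancy, far above the next highest pool at 0.82. The gap to that pool was 0.57 of the whole range of the 9 pools, more than a Dixon test allows at the 95% level. The same pool had the lowest FOXO3 level of late pregnancy, 4.04 scaled RPKM on 179 exon reads. Of 20 sets of library values examined in this way 1 stood out, and chance gives about 1 in 20. Without this pool the ratio still differed between the states by -2.31 on the log2 scale.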

How the results depend on the processing

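Under 28 alternatives for the comparison of the states, the changes of IRS1 and FOXO1 kept their direction, and those of INSR, PDPK1 and FOXO3 did so except on library size alone. Sizes moved there as well, with log2 changes of 0.18 for IRS1 (edgeR adjusted p = 0.047) and -2.43 for FOXO1. The values that turned are these, on the log2 scale. On library size alone INSR was at -1.44, PIK3R1 -1.88, AKT1 -1.82, AKT2 -1.78, PDPK1 -1.27 and FOXO3 -0.071, with 6 of the 8 genes called lower and 1 higher, and 69 pathway genes lower and 3 higher, while the median of all genes was itself -1.94. Under upper quartile scaling PIK3R1 was -0.13, AKT1 -0.062 and AKT2 -0.018. With library sizes counted without milk protein genes 2 were called lower, and PIK3R1 was -0.19, AKT1 -0.12 and AKT2 -0.078. With PRPF3 and CUL1 as the reference 4 were lower, and PIK3R1 was -0.24, AKT1 -0.18 and AKT2 -0.13. In limma on quantile-normalized RPKM 2 were lower, with PIK3R1 at -0.15, AKT1 at -0.078 and AKT2 at -0.0505 after adding 1 (-0.15, -0.081 and -0.0525 after adding 0.1). PIK3R1 was -0.030 with no filter and -0.064 where every library had to hold 10 reads, where the AKT2 call was also lost (0.082 and 0.048). The cause of these turns beyond the shift of the median was not tested.

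Pools of the 2 states share names. In 6 such pairs the deviations from the state means correlated by -0.028 to 0.092, and 2 of 6 pools were most like their namesake. These values cannot decide whether the names pair the samples, since which ewes entered which pool was not given. With the replicate block the AKT2 change was 0.11 (adjusted p = 0.15) and its intron change 0.30 (adjusted p = 0.043), and the ratio of AKT2 to AKT1 was -0.027 (exact sign-flip p = 0.66). No other call of the 8 genes changed under the block. Leaving out each library in turn gave -0.0049 to 0.0877 for that ratio, -2.48 to -2.31 for FOXO1 to FOXO3, 4 to 5 genes higher and 1 lower, and 31 to 32 pathway genes lower and 26 to 28 higher. On introns it left 4 to 5 genes higher, and FOXO1 ran from -0.10 (without MM pool 2 of lactation) to 0.28. INSR introns were at 0.014 with library sizes from exon reads, where AKT1 (0.49) and AKT2 (0.31) were called. Between dam nutrition groups DESeq2 called 20 genes and leaving out 1 late pregnancy pool gave 0 to 1, and for the interaction DESeq2 called 19, with none of the 8 genes called in any of these fits. Interaction fits without single lactation pools were not run. Low read numbers limit FOXO1 introns (3 to 30 per library), GRB14 in lactation (1 to 5), TRIB3 in late pregnancy (1 to 10) and SESN2 in late pregnancy (2 to 19), among others.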
